A study of Mus musculus with 2 samples.

Results

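The 9 receptors described here, encoded by Adrb1, Adrb3, Tshr, Adra2a, Adora1, Ptger3, Hcar2, Npr3 and Ffar4, sit on the surface of fat cells and turn the breakdown of stored fat up or down. They were taken by gene symbol from the 56980 genes of the count tables, and all 9 symbols were found. In adipocytes, receptors that couple to the stimulatory G protein Gs (the beta-adrenergic receptors Adrb1 and Adrb3 and the thyrotropin receptor Tshr) raise cyclic AMP, and protein kinase A then activates the lipases that release fatty acids. Receptors that couple to the inhibitory G protein Gi lower cyclic AMP and restrain lipolysis. Among them are the alpha-adrenergic receptor Adra2a, which binds the same catecholamines as Adrb1 and Adrb3, the adenosine receptor Adora1, the prostaglandin E receptor Ptger3 and Hcar2, which binds the ketone body beta-hydroxybutyrate. Npr3 clears natriuretic peptides, hormones that can drive lipolysis through cyclic GMP, and Ffar4 binds long-chain fatty acids.

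The study compared the nuclei of fat depots of female C57BL/6J mice at a young and an old age by single-nucleus RNA sequencing. The values below come from its young visceral fat, the gonadal depot of mice aged 2 months, with 2 libraries (n = 2, replicate 1 and replicate 2) and no treatment named in the labels. The labels call the cell type adipocytes and the platform 10x Genomics, while the protocol names nuclei of whole tissue and the GEXSCOPE kit of Singleron, and the counts held several cell types. Barcodes were kept as nuclei when they had over 500 genes, over 1000 UMIs (unique molecular identifiers, counted RNA molecules) and under 15% mitochondrial UMIs. This left 2833 of 7344 called barcodes in replicate 1 and 12225 of 17148 in replicate 2.

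The 2 libraries differed before any receptor was examined. Nuclei kept in replicate 1 held 8466237 UMIs in all, with a median of 2221 a nucleus, and those in replicate 2 held 48068273, with a median of 2726. The median mitochondrial share was 6.20% in replicate 1 and 0.621% in replicate 2. Over 31197 genes, the chi-square of the difference between the libraries was 86.3 times its degrees of freedom, far beyond counting error. The libraries shared 27 barcodes among the 15058 nuclei kept. Values are therefore given for each library, and intervals, exact at 95% (Poisson for levels, Clopper-Pearson for shares of nuclei), cover counting error only.

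Clustering gave 10 groups of nuclei, and 9 of them were named from the markers of a cell type. The adipocyte-like cluster met all 8 adipocyte markers and held 1609 nuclei in replicate 1 and 4201 in replicate 2. Fibro-adipogenic progenitor-like nuclei (FAP, 258 and 1322), mesothelial-like (238 and 2149), immune-like (259 and 1127), endothelial-like (74 and 527) and smooth muscle-like nuclei (25 and 141) made up the other types. The endothelial-like nuclei included a lymphatic-like cluster of 0 and 32 nuclei, found in replicate 2 only. Its part in the endothelial-like levels was not tested. The remaining cluster, of 370 and 2758 nuclei, also met all 8 adipocyte markers and was led by Chl1, Tshr and Pnpla3, but was left unnamed because the predicted genes Gm11168, Gm10801 and Gm10718 were among its 10 leading genes. Adipocyte-like nuclei were the deepest type, with a median of 2913 UMIs in replicate 1 and 6395 in replicate 2, against 1772 and 2091.5 in FAP-like nuclei. Levels are UMI counts of a gene scaled to 1000000 UMIs of a cell type in a library (CPM), so the number of nuclei and their depth cancel.

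RNA of adipocytes was found in every other type, which sets the background for the receptors. The 8 adipocyte markers reached 14.2 to 34.2% of their adipocyte level in FAP-like nuclei of replicate 1 and 20.5 to 38.1% in replicate 2. In mesothelial-like nuclei they reached 17.8 to 41.7% and 24.8 to 49.3%, and in immune-like nuclei 21.6 to 42.6% and 21.4 to 46.4%. In smooth muscle-like nuclei they reached 18.2 to 52.6% and 14.6 to 39.4%. The marker shares in endothelial-like nuclei ran from 22.6 to 56.2% in replicate 1 and from 33.6 to 177% in replicate 2, so this type gives the weakest ground for comparison. A receptor within these shares in another cell type is read below as not above the background. Npr3 in endothelial-like nuclei is left unsettled, since only Adipoq lay above it.

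The genes lie on 7 chromosomes of the GRCm39 build, and all 9 are annotated as protein-coding. Among the Gs-coupled receptors, Adrb1 (ENSMUSG00000035283) spans chr19:56710631-56721545 on the plus strand, Adrb3 (ENSMUSG00000031489) chr8:27715443-27740925 on the minus strand and Tshr (ENSMUSG00000020963) chr12:91351337-91517124 on the plus strand. Among the Gi-coupled receptors, Adra2a (ENSMUSG00000033717) spans chr19:54032582-54037413 (plus), Adora1 (ENSMUSG00000042429) chr1:134126948-134163579 (minus), Ptger3 (ENSMUSG00000040016) chr3:157272492-157352099 (plus) and Hcar2 (ENSMUSG00000045502) chr5:124001633-124003562 (minus). Npr3 (ENSMUSG00000022206) spans chr15:11839982-11907373 on the minus strand and Ffar4 (ENSMUSG00000054200) chr19:38085307-38105287 on the plus strand. Adora1 overlaps Mybph, and Ffar4 overlaps the retinol carrier gene Rbp4, each on the opposite strand, while Tshr holds a pseudogene and Adrb3 a long noncoding RNA gene, Gm63998, on its own strand. Long noncoding RNA genes on the opposite strand overlap Adrb1, Adrb3, Adra2a, Adora1 and Npr3. Whether reads were assigned by strand is not stated, so the counts of overlapping genes are less certain than those of Ptger3 and Hcar2, which overlap no other gene.

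RefSeq promoters of 300 bases (250 before and 50 after the start, build GRCm38.p6) were on hand for 6 of the 9 genes, and not for Adrb3, Tshr and Hcar2. Those of Adrb1, Npr3 and Ptger3 are shown because Adrb1 was higher and Npr3 lower in nuclei with Cidea, and Ptger3 was high in mesothelial-like nuclei as well. Adrb1 is read from chr19:56721867-56722166 on the plus strand, Npr3 from chr15:11907322-11907621 on the minus strand and Ptger3 from chr3:157566626-157566925 on the plus strand. Capitals mark matches on either strand to the CCAAT box, to GGGCGG (the GC box), to TATAAA (the TATA box), to TGACG (the core of a cyclic AMP response element) or to AGGTCA (a nuclear receptor core). On opposite strands AGGTCA and TGACG share the run TGAC.
Adrb1: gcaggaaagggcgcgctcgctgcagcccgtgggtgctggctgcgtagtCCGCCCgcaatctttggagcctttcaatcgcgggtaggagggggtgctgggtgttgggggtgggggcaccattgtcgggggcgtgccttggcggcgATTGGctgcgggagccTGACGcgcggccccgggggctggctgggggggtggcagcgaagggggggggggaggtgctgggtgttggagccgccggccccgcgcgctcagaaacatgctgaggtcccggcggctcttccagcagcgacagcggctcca
Npr3: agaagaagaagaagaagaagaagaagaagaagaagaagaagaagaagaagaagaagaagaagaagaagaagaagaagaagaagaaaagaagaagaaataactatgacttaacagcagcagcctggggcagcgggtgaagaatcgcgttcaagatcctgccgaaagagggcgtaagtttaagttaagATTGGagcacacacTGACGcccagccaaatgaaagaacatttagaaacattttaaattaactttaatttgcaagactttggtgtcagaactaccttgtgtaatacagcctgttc
Ptger3: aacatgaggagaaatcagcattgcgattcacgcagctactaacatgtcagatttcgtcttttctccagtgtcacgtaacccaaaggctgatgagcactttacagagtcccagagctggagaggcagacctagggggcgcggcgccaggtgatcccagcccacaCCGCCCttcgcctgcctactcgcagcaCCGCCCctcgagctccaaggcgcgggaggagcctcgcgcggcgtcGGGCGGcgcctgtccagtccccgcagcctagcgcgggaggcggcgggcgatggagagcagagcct
The Adrb1 promoter held 1 CCAAT match, 1 GGGCGG match and 1 TGACG match at a G and C content of 72.3%. The Npr3 promoter held a CCAAT and a TGACG match at 39.0%. The Ptger3 promoter held 3 GGGCGG matches at 64.0%. Of 32851 promoters of the same length, CCAAT was in 37.4%, GGGCGG in 35.7%, TGACG in 20.8%, AGGTCA in 16.3% and TATAAA in 13.6%, so each match is common.

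Together, the 9 receptors made up 3619 CPM of the adipocyte-like RNA in replicate 1 and 3258 CPM in replicate 2. In the other 5 types their sum lay between 661 CPM (smooth muscle-like, replicate 2) and 1299 CPM (endothelial-like, replicate 2). Most of the adipocyte sum came from Tshr, Adrb3, Ptger3 and Npr3. The other 5 receptors were each at 65.4 CPM or less there.

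Tshr, which binds thyrotropin from the pituitary, had the highest level in adipocyte-like nuclei before gene length is taken into account, 1322 CPM (interval 1293 to 1352) in replicate 1 and 1183 CPM (1170 to 1196) in replicate 2. Its levels in the other types ran from 173 CPM (FAP-like) to 311 CPM (endothelial-like) in replicate 1 and from 179 CPM (smooth muscle-like) to 365 CPM (endothelial-like) in replicate 2. The adipocyte values were thus above every other type in both libraries, with no overlap. As a share of its adipocyte level, Tshr in FAP-like nuclei of replicate 1 was below all 8 adipocyte markers, and in mesothelial-like nuclei it was below them in both libraries at 17.3 and 24.0%. No named type other than adipocyte-like nuclei therefore held Tshr above the background measured with the markers. The unnamed cluster held 1077 and 1070 CPM, 81.5 and 90.5% of the adipocyte level. Below the adipocyte level, the endothelial-like values of both libraries were above every value of the other 4 types, but in replicate 1 the endothelial-like value (243 to 392) was within counting error of the smooth muscle-like 303 CPM.

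Adrb3, the beta-adrenergic receptor typical of rodent fat cells, stood at 843 CPM (820 to 867) in replicate 1 and 928 CPM (917 to 939) in replicate 2. In the other types it lay between 202 and 303 CPM in replicate 1 and between 166 and 365 CPM in replicate 2. Adipocyte-like nuclei were again the highest in both libraries. The intervals of endothelial-like, immune-like and mesothelial-like nuclei overlapped in replicate 1, while in replicate 2 the endothelial-like level (365 CPM, 334 to 399) was above the other 2 (266 CPM, 247 to 286, and 272 CPM, 258 to 286). Adrb3 in FAP-like nuclei was at 28.1 and 25.5% of its adipocyte level, inside the range of the adipocyte markers.

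Adrb1, the beta-adrenergic receptor best known from the heart, was far lower, at 22.3 CPM (18.6 to 26.5) in replicate 1 and 14.9 CPM (13.5 to 16.4) in replicate 2, from 129 and 417 UMIs. Immune-like nuclei came next with 17.7 CPM (8.50 to 32.6) and 14.8 CPM (10.5 to 20.2), from 10 and 39 UMIs. These levels overlapped those of adipocyte-like nuclei in both libraries. They were 79.6 and 99.4% of the adipocyte level, above all 8 adipocyte markers, which reached at most 42.6 and 46.4% in immune-like nuclei, but in replicate 1 the lower end of the Adrb1 interval, 8.50 CPM, lies inside that range. Within the immune-like nuclei, the cluster led by the macrophage gene C1qc held 13.1 CPM (4 UMIs) and 17.9 CPM (32 UMIs), and the cluster led by Lyz1 and Ccr2 held 32.9 CPM (6 UMIs) and 9.07 CPM (7 UMIs), so neither was higher in both libraries. FAP-like, mesothelial-like and endothelial-like nuclei were lower, between 4.42 and 8.64 CPM, and smooth muscle-like nuclei had 0 UMIs in replicate 1, where the interval reaches 53.2 CPM, and 12.5 CPM from 4 UMIs in replicate 2.

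Ptger3, which binds prostaglandin E, stood at 814 CPM (791 to 838) in adipocyte-like nuclei of replicate 1 and 854 CPM (843 to 865) in replicate 2. Mesothelial-like nuclei, the lining of the depot, held 530 CPM (472 to 593) and 601 CPM (580 to 622). That level lay below the adipocyte level and above the other 4 types, which ran from 174 to 289 CPM in replicate 1 and from 194 to 354 CPM in replicate 2, with no overlap in either library. The mesothelial level was 65.1 and 70.4% of the adipocyte level, above all 8 adipocyte markers. With each nucleus thinned to 1000 UMIs, which removes the difference in depth, 36.6% (30.4 to 43.0) and 36.3% (34.3 to 38.4) of mesothelial-like nuclei had a Ptger3 UMI, against 14.0 and 13.4% of FAP-like nuclei and 49.7 and 48.7% of adipocyte-like nuclei. Ptger3 was thus above the adipocyte background in mesothelial-like nuclei of both libraries.

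Adora1, which binds adenosine, was at 63.0 CPM (56.7 to 69.8) and 58.4 CPM (55.6 to 61.3) in adipocyte-like nuclei. Endothelial-like nuclei followed with 43.2 CPM from 10 UMIs and 34.6 CPM from 47 UMIs. In replicate 1 the endothelial interval (20.7 to 79.4) covered the adipocyte level, and in replicate 2 (25.4 to 46.0) it did not. The other types lay between 10.4 and 28.9 CPM, and neighbours in that order overlapped.

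Adra2a was close to absent. Adipocyte-like nuclei held 2 UMIs in replicate 1 (0.345 CPM, 0.0418 to 1.25) and 4 UMIs in replicate 2 (0.143 CPM, 0.0389 to 0.365), and FAP-like nuclei held 0 in both. The highest level, 43.3 CPM in smooth muscle-like nuclei of replicate 1, came from 3 UMIs of 1 nucleus, and 1 UMI gave 3.13 CPM in replicate 2. Of the immune-like UMIs, 4 in replicate 1 and 2 in replicate 2, all were in the cluster led by Lyz1 and Ccr2, and the 4 came from 1 nucleus. The unnamed cluster held 0 and 11 UMIs. At adipocyte totals of 5792189 and 28051327 UMIs, 3 UMIs correspond to 0.518 CPM in replicate 1 and to 0.107 CPM in replicate 2.

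Hcar2, the receptor through which nicotinic acid lowers lipolysis, was also rare. Adipocyte-like nuclei held 5.18 CPM (3.49 to 7.39) from 30 UMIs in replicate 1 and 2.35 CPM (1.82 to 2.99) from 66 UMIs in replicate 2. Immune-like nuclei held 10.6 CPM (3.90 to 23.1) and 2.27 CPM (0.834 to 4.95), from 6 UMIs each. The 2 types overlapped. The immune-like levels were 205 and 96.6% of the adipocyte level, above all 8 adipocyte markers, but in replicate 2 the lower end of the interval lies inside the marker range. The small immune-like cluster of 29 and 31 nuclei marked by Saa3, Alox15 and Prg4 gave 39.6 CPM (8.17 to 116) from 3 UMIs and 12.8 CPM (0.324 to 71.3) from 1 UMI, too few to place it above adipocyte-like nuclei in both libraries.

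Npr3 and Ffar4 were the receptors whose adipocyte levels differed most between the libraries among the 7 with over 100 UMIs in each. Npr3 stood at 483 CPM (465 to 501) in replicate 1 and 188 CPM (183 to 193) in replicate 2, a ratio of 2.57. Ffar4 stood at 65.4 CPM (59.0 to 72.4) and 29.2 CPM (27.3 to 31.3), a ratio of 2.24. Tshr, Adrb3, Ptger3 and Adora1 had ratios between 0.908 and 1.12. Of the 8 adipocyte markers, the adiponectin gene Adipoq differed most, at a ratio of 2.90, and the ratios of the others ran from 0.778 to 1.75. The median mitochondrial share of adipocyte-like nuclei differed too, 5.08% in replicate 1 against 0.237% in replicate 2, and its part in the ratios was not tested.

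Among the other types, endothelial-like nuclei had the most Npr3, 242 CPM (183 to 314) in replicate 1 and 155 CPM (134 to 177) in replicate 2. This was below the adipocyte level of the same library in both, and above the 52.1 to 145 CPM of the other 4 types. Against the adipocyte level the endothelial share was 50.1% in replicate 1 and 82.1% in replicate 2, inside the range of the adipocyte markers there. Adipoq set the upper end of that range (56.2 and 177%), and no other marker reached the share of Npr3. The marker medians were 32.2 and 50.1%. Because the spread between the libraries was wide, the adipocyte and endothelial means of Npr3 overlapped across libraries. Ffar4 reached 30.2 CPM (12.2 to 62.3) and 18.4 CPM (11.9 to 27.2) in endothelial-like nuclei and 19.1 and 17.6 CPM in mesothelial-like nuclei, and no neighbours in its order of types lay apart by more than their spread.

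**Figure D1:**
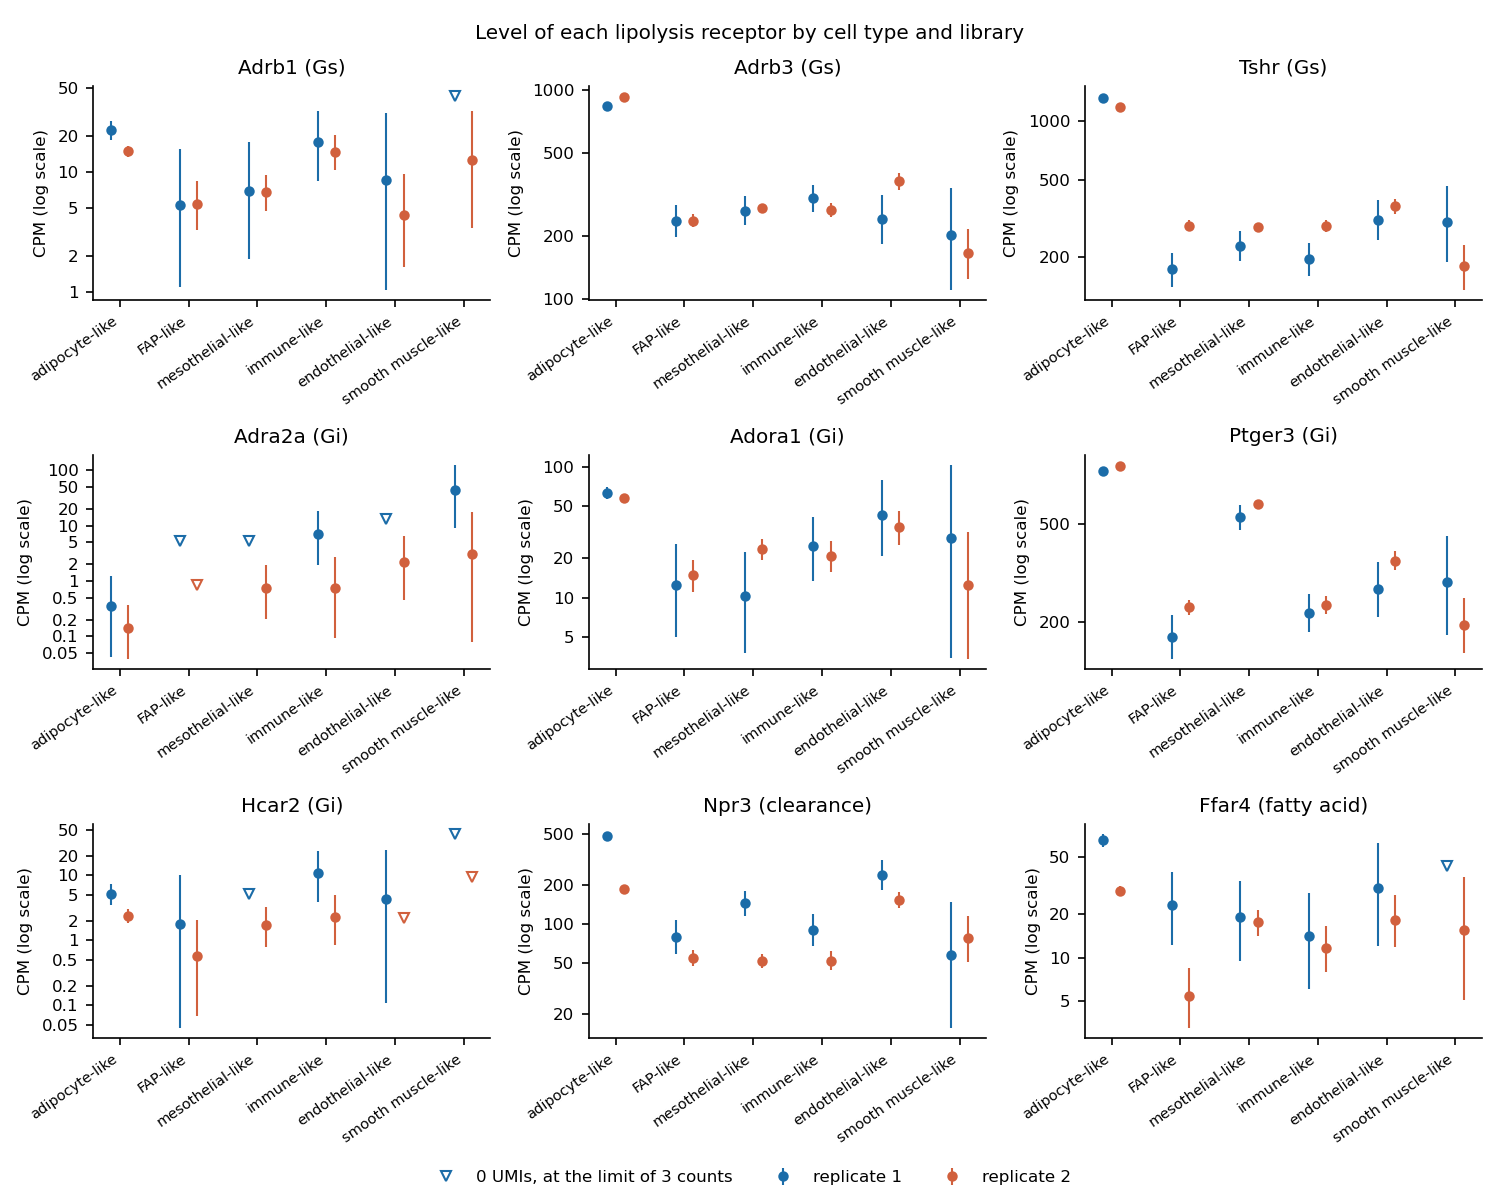
Level of each receptor (CPM, log scale) in each cell type, with 1 point for each library and bars for the exact 95% Poisson interval. Tshr, Adrb3 and Ptger3 lie between 814 and 1322 CPM in adipocyte-like nuclei, Ptger3 is also high in mesothelial-like nuclei (530 and 601 CPM), and Adra2a is near the bottom of the scale in adipocyte-like nuclei, on 2 and 4 UMIs.

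**Figure D2:**
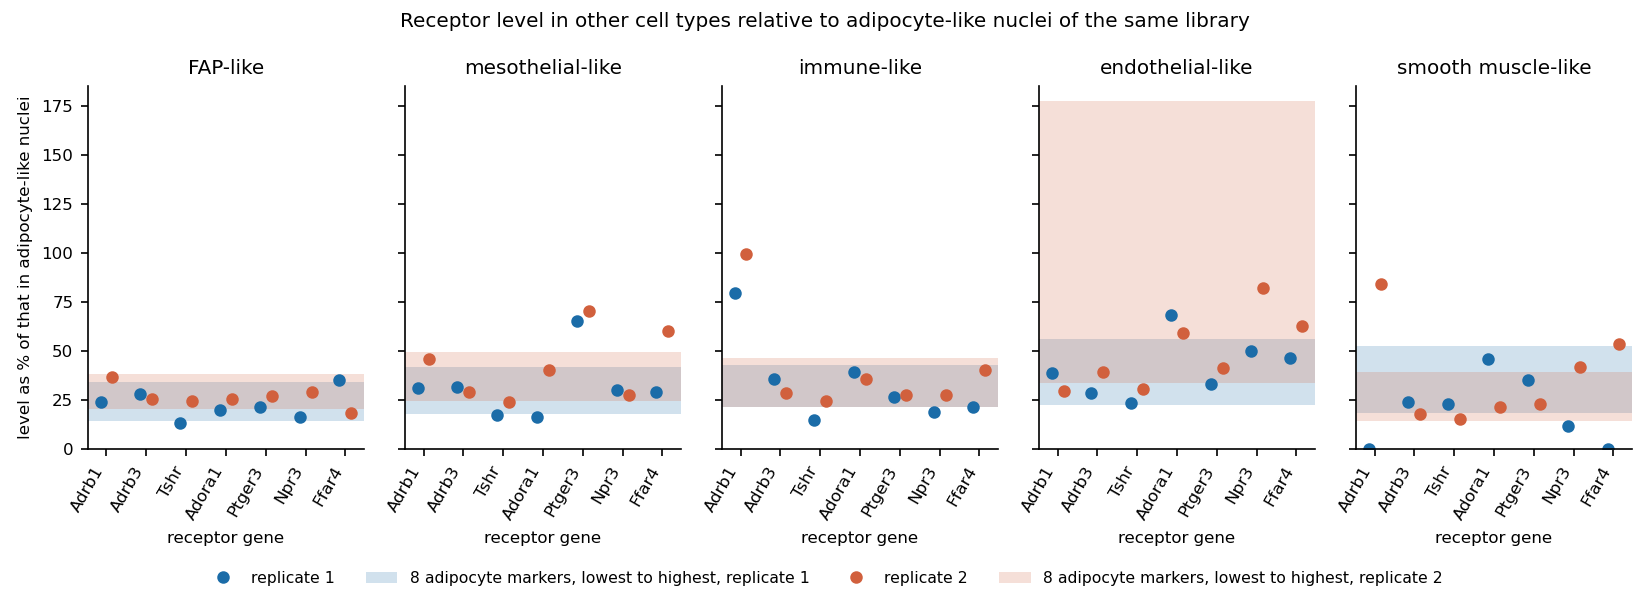
Level of the 7 receptors tested in the other cell types as a percentage of its adipocyte level in the same library, beside the range of the 8 adipocyte markers. Ptger3 in mesothelial-like nuclei (65.1 and 70.4%) and Adrb1 in immune-like nuclei (79.6 and 99.4%, on 10 and 39 UMIs) lie above the marker range in both libraries, Adrb1 in replicate 1 within counting error.

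The order of the receptors depended on whether levels were divided by gene length, and by which length. A UMI stands for an RNA molecule of any length, and whether these counts grow with length was not tested. The divided levels are therefore a description only. The lengths come from a GENCODE annotation that may differ from the one used for counting. Per kilobase of exon, the mean adipocyte levels were 173 CPM for Tshr, 155 for Adrb3 and 132 for Ptger3, followed by Npr3 at 27.0, Ffar4 at 11.2, Adora1 at 9.46, Adrb1 at 5.49, Hcar2 at 1.95 and Adra2a at 0.0505. Per kilobase of the whole gene, introns included, Adrb3 led with 34.7 CPM, ahead of Ptger3 with 10.5, Tshr with 7.56 and Npr3 with 4.98. Tshr was thus above Adrb3 per length of exon and below it per length of gene, where its gene spans 166 kilobases against 25.5 for Adrb3. On both scales the catecholamine receptor with the highest level was Adrb3, and Adra2a was the lowest of the 9.

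UMIs of both kinds of receptor were often found in the same adipocyte-like nucleus, though some may be background, since adipocyte RNA was found in every type. At 1000 UMIs a nucleus, 60.4% of adipocyte-like nuclei in replicate 1 and 56.7% in replicate 2 had a Tshr UMI, and 52.6 and 55.7% had an Adrb3 UMI. The shares in FAP-like nuclei were 10.5 and 13.5% for Tshr and 17.8 and 12.6% for Adrb3, beside 14.0 and 13.4% for Ptger3, at median depths before thinning of 1772 and 2091.5 UMIs. A UMI of at least 1 Gs-coupled receptor was in 80.8 and 79.9% of adipocyte-like nuclei, and a UMI of at least 1 Gi-coupled receptor in 52.6 and 51.3%. Both kinds were found together in 42.8% (40.3 to 45.2) and 40.9% (39.4 to 42.4), while the product of the separate shares was 42.5 and 41.0%. Gs- and Gi-coupled receptors were therefore detected together as often as their separate shares give, in both libraries. Adrb3 and Tshr were found together in 32.8 and 33.0% of nuclei, beside products of 31.8 and 31.6%.

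The next comparison asked whether each receptor differed between adipocyte-like nuclei and the mean of the other 5 types, over 12 sums of counts (6 types in 2 libraries). It used edgeR's quasi-likelihood test, adjusted by Benjamini-Hochberg over 14036 genes at a threshold of 0.05, with the library as a block. The nuclei had been clustered on the same counts and the sums come from n = 2 libraries, so the p-values describe how far the clusters are apart. Of the 9 receptors, 7 passed the filter on low counts and were tested, while Adra2a and Hcar2 did not pass. A gene that passes the filter through the type where it is high has to differ, so the count gives no support of its own. All 7 were higher in adipocyte-like nuclei, where 60.8% of all genes tested passed in either direction, 29.0% higher and 31.8% lower.

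Tshr had the largest difference of the 7, with a log2 fold change of 2.74 (SE 0.15, edgeR quasi-likelihood, Benjamini-Hochberg adjusted p = 5.7e-22). Adrb3 followed with 2.24 (SE 0.15, edgeR quasi-likelihood, Benjamini-Hochberg adjusted p = 4.9e-19) and Npr3 with 2.12 (SE 0.17, adjusted p = 1.8e-16 by the same edgeR quasi-likelihood test, Benjamini-Hochberg). Adora1 at 1.99 (SE 0.23), Ptger3 at 1.98 (SE 0.15), Ffar4 at 1.87 (SE 0.26) and Adrb1 at 1.54 (SE 0.33) were next. Adjusted p-values of these 4 by the edgeR quasi-likelihood test (Benjamini-Hochberg) ran from 3.2e-17 for Ptger3 to 7.2e-05 for Adrb1. The direction was the same in both libraries for all 7. With the highest doublet scores removed, Tshr was at 3.32, and the adipocyte-like nuclei were 1640 and 4891 in that fit. From CPM in a single library, the log2 fold change of Ffar4 was 2.79 in replicate 1 and 1.20 in replicate 2, that of Adrb1 2.23 and 0.91, that of Npr3 2.16 and 1.41 and that of Tshr 2.49 and 2.11.

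These folds depend on the scaling. The median log2 fold change of all genes tested was 0.02 with TMM scaling and -0.23 with DESeq2's size factors, and it was -0.09 from plain CPM in replicate 1 and -0.43 in replicate 2. Of the genes that passed, 47.7% were higher in adipocyte-like nuclei with TMM and 32.1% with DESeq2. The 7 receptors were higher under both, at 1.32 (Adrb1) to 2.50 (Tshr) with DESeq2. With nuclei limited to 5% mitochondrial UMIs, and with no filter on low counts, Hcar2 was tested too and passed as higher, at log2 fold changes of 2.64 (SE 2.56) and 2.85 (SE 1.70). These errors are large beside the folds, and the mean level of Hcar2 was higher in immune-like nuclei (6.45 CPM) than in adipocyte-like nuclei (3.77 CPM).

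Each other type was tested against the mean of the rest in the same way. Mesothelial-like nuclei, where 18.2% of genes passed, differed in 1 receptor, Ptger3, which was higher at a log2 fold change of 0.87 (SE 0.16, edgeR quasi-likelihood, Benjamini-Hochberg adjusted p = 3.1e-05). Endothelial-like nuclei, where 11.8% passed, differed in Npr3, higher at 0.89 (SE 0.21, edgeR quasi-likelihood, Benjamini-Hochberg adjusted p = 0.00119). In both cases the mean of the rest holds the adipocyte-like nuclei, so these receptors were higher even though the adipocyte level entered the mean. Endothelial Npr3 was nonetheless inside the range of the adipocyte markers there, although only Adipoq lay above it. Its place against the background is therefore not settled. FAP-like nuclei, where 14.8% passed, had 4 lower receptors, Tshr, Adora1, Ptger3 and Npr3. Immune-like nuclei, where 24.7% passed, had 3 lower, Tshr, Ptger3 and Npr3, and smooth muscle-like nuclei, where 9.70% passed, had 3 lower, Adrb3, Tshr and Ptger3. All of these were highest in adipocyte-like nuclei, which are part of the mean of the rest, so the lower calls are not separate from the adipocyte result. Adrb1 in immune-like nuclei had a log2 fold change of 0.81 (SE 0.41) and did not pass, with an adjusted p of 0.153 by the edgeR quasi-likelihood test (Benjamini-Hochberg).

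**Figure D3:**
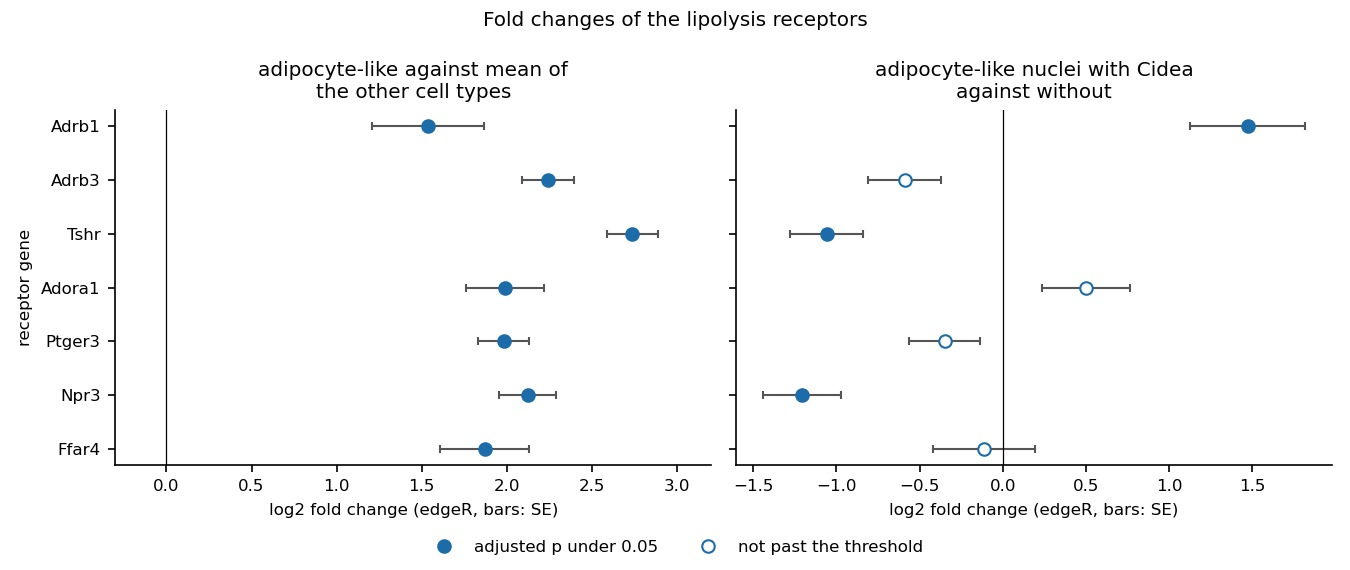
Log2 fold change of each tested receptor with its standard error, for adipocyte-like nuclei against the mean of the other types and for adipocyte-like nuclei with Cidea against those without. All 7 lie above 1 in the cell type comparison, while with Cidea Adrb1 lies at 1.47 and Tshr and Npr3 lie at -1.06 and -1.21.

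Cidea encodes a lipid droplet protein of brown and beige fat cells, and the following comparison asked whether adipocyte-like nuclei with a Cidea UMI differed in their receptors from those without. In replicate 1, 170 adipocyte-like nuclei had a Cidea UMI and 1439 had none, and in replicate 2 the numbers were 544 and 3657. Nuclei with Cidea were deeper, with a median of 4489.5 against 2755 UMIs in replicate 1 and 7508.5 against 6176 in replicate 2. At 1000 UMIs a nucleus, Cidea was in 4.54 and 3.86% of adipocyte-like nuclei, in 1.16 and 1.06% of FAP-like, in 1.93 and 1.95% of immune-like and in 2.70 and 1.90% of endothelial-like nuclei, so some of the nuclei counted as having Cidea are at the background. The comparison had 14 sums of counts, with the other cell types kept to estimate the spread.

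Adrb1 was higher in nuclei with Cidea. Its level was 53.2 CPM (39.1 to 70.8) with Cidea against 16.7 CPM (13.3 to 20.7) without in replicate 1, and 31.9 CPM (26.7 to 37.7) against 11.8 CPM (10.5 to 13.3) in replicate 2. The groups did not overlap in either library. The log2 fold change was 1.47 (SE 0.34, edgeR quasi-likelihood, Benjamini-Hochberg adjusted p = 0.0044).

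Tshr and Npr3 were lower in nuclei with Cidea. The study used Tshr and Cidea as markers of different adipocyte subpopulations, from data that include these libraries. The lower Tshr is therefore not an independent result. Tshr stood at 753 CPM (697 to 812) with Cidea against 1425 CPM (1392 to 1459) without in replicate 1, and at 614 CPM (590 to 638) against 1284 CPM (1270 to 1299) in replicate 2. Npr3 stood at 224 CPM (194 to 258) against 529 CPM (509 to 550), and at 99.8 CPM (90.5 to 110) against 204 CPM (198 to 210). Within each library the groups with and without Cidea did not overlap for either gene. For Npr3 the library mattered about as much as Cidea. Its level with Cidea in replicate 1 was within counting error of its level without in replicate 2. The log2 fold change was -1.06 for Tshr (SE 0.22, edgeR quasi-likelihood, Benjamini-Hochberg adjusted p = 9.2e-04) and -1.21 for Npr3 (SE 0.23, edgeR quasi-likelihood, Benjamini-Hochberg adjusted p = 2.8e-04).

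In all, 3 of the 7 receptors tested passed, while 2.05% of 14651 genes did, 1.20% higher and 0.853% lower. The other 4 did not pass. Adrb3 was at 610 CPM with and 885 CPM without Cidea in replicate 1 and at 676 and 973 CPM in replicate 2, a log2 fold change of -0.59 (SE 0.22, edgeR quasi-likelihood, Benjamini-Hochberg adjusted p = 0.226). Adora1 had 0.50 (SE 0.26), Ptger3 -0.35 (SE 0.21) and Ffar4 -0.11 (SE 0.31), with adjusted p-values between 0.666 and 0.999 by the edgeR quasi-likelihood test (Benjamini-Hochberg). Adra2a, with 0 and 1 UMIs in nuclei with Cidea, and Hcar2, with 5 and 21, were below the filter. The sign of Ffar4 changed with the nuclei counted as adipocyte-like or as having Cidea and with the library, so it has no direction here.

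The calls with Cidea rest on the library block, which compares nuclei with and without Cidea inside each library. Without the block, edgeR passed 0 receptors and 21 genes, with 511 genes at an unadjusted p under 0.05, and the log2 fold changes were 1.48 for Adrb1, -1.06 for Tshr and -1.27 for Npr3. The unadjusted p was under 0.05 for 3 receptors there. With DESeq2, Adrb1, Tshr and Npr3 passed as they did in edgeR. With nuclei limited to 5% mitochondrial UMIs, which also changed the adipocyte-like group (915 and 6920 nuclei), Npr3 alone passed, and the edgeR quasi-likelihood test (Benjamini-Hochberg) gave an adjusted p of 0.0678 for Tshr and 0.150 for Adrb1, at log2 fold changes of -0.94 and 1.41. With no filter on low counts the same test gave 0.0631 for Adrb1, at 1.25. Over all alternatives the adjusted p in edgeR or DESeq2 ran from 1.1e-09 to 0.462 for Adrb1, from 5.2e-17 to 0.706 for Tshr and from 1.4e-16 to 1.00 for Npr3, and Adrb3 passed in 4 of 12. Among adipocyte-like nuclei of similar depth, 2000 to 6000 UMIs, Adrb1 was again higher and Tshr and Npr3 lower.

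The differences were wider in nuclei with more Cidea UMIs. For Tshr, the levels in nuclei with 0, 1, 2 to 3 and at least 4 Cidea UMIs were 1425, 1150, 466 and 213 CPM in replicate 1 and 1284, 798, 577 and 369 CPM in replicate 2. Adrb1 ran the other way, with 16.7, 22.1, 42.8 and 127 CPM in replicate 1 and 11.8, 21.2, 28.4 and 51.5 CPM in replicate 2. Both series kept their direction at every step in both libraries. For Adrb1 some steps lay within counting error, among them 0 to 1 in replicate 1 and 1 to the 2 to 3 group in both libraries. The group with at least 4 Cidea UMIs held 39 and 140 nuclei. Adrb3 went down at each step too, from 885 to 440 CPM in replicate 1 and from 973 to 558 CPM in replicate 2. The adipocyte markers were lower as well. In nuclei with at least 4 Cidea UMIs the 8 markers stood at 0.449 (Adipoq) to 0.902 (Adipor2) of their level without Cidea in replicate 1 and at 0.557 to 0.951 in replicate 2. Adrb3, at 0.497 and 0.574, lay inside these ranges, and Tshr, at 0.149 and 0.287, lay below them. Npr3 was lowest in replicate 1 at 2 to 3 Cidea UMIs (147 CPM) and was 190 CPM at 4 or more, and in replicate 2 it went from 204 to 78.9 CPM. The median mitochondrial share hardly differed across these groups, between 5.03 and 5.67% in replicate 1 and between 0.235 and 0.249% in replicate 2.

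Clustering adipocyte-like nuclei again set a small group apart. It held 39 nuclei in replicate 1 and 133 in replicate 2, with Cidea at 1003 and 726 CPM and the uncoupling protein gene Ucp1 at 334 and 329 CPM. In these nuclei Tshr was at 106 CPM (64.9 to 164) and 273 CPM (242 to 307). In replicate 1 that was within counting error of the 173 CPM (140 to 210) of FAP-like nuclei, the lowest of the other cell types. In replicate 2 it lay among the other types. Adrb1 was at 122 CPM (77.4 to 183) and 70.2 CPM (54.9 to 88.4) and Adrb3 at 345 and 499 CPM, while Npr3 was at 202 CPM (143 to 277) and 75.0 CPM (59.2 to 93.8) and Ptger3 at 616 and 495 CPM. The remaining adipocyte-like nuclei were mainly in a subcluster with 608 and 3978 nuclei and another with 958 and 79, which were unevenly drawn from the 2 libraries but had like levels of Tshr, between 1103 and 1417 CPM.

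**Figure D4:**
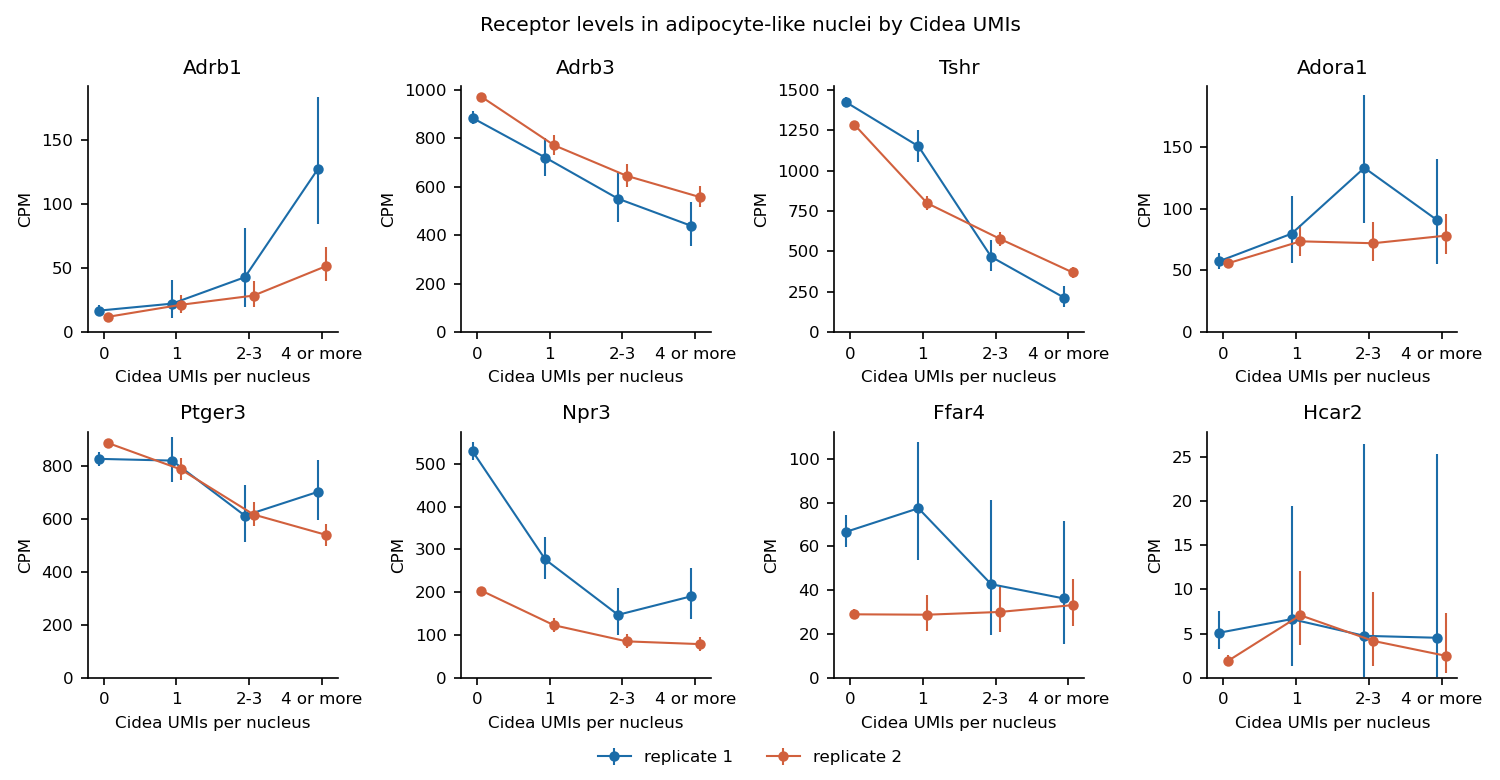
Level of the receptors (CPM) in adipocyte-like nuclei by the number of Cidea UMIs in the nucleus, for each library, with exact 95% Poisson intervals. Tshr goes from 1425 to 213 CPM and from 1284 to 369 CPM, and Adrb1 from 16.7 to 127 CPM and from 11.8 to 51.5 CPM.

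Genes whose levels followed a receptor over the same 12 sums were taken as the 3 with the highest Pearson correlation of log levels, as a description with no test, since most of each correlation is the contrast of adipocyte-like sums with the rest. Adrb3 was most like Pcx (r = 0.985), Acly and Dgat1. Ptger3 was most like Fgf14 (r = 0.937), Prkd1 and Ide, Adora1 most like 4931406C07Rik (r = 0.941), Acadm and Plcb1, and Adrb1 most like Retsat (r = 0.944), Eed and Gramd2. Npr3 was most like Rpia (r = 0.921), Agpat2 and B3galt2, and Ffar4 most like Tdrp (r = 0.963), Usp19 and Pdk1. Hcar2, with 121 UMIs, was most like Med24 (r = 0.887), Zfp961 and Zc3h8, and Adra2a had too few UMIs. Pcx is also 1 of the 8 adipocyte markers by which the clusters were named.

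The machinery around the receptors was followed through 10 lists of 145 genes. All of the lipolytic enzymes and cofactors tested were higher in adipocyte-like nuclei, 8 of 8, with a median log2 fold change of 1.78 against 0.02 for all genes. Among them were the hormone-sensitive lipase gene Lipe (1274 and 1045 CPM, log2 fold change 2.02) and the droplet coat gene Plin1 (939 and 898 CPM, 2.25). Among all genes tested, 29.0% were higher and 31.8% lower. Of 21 other receptors of lipolysis tested, 9 were higher and 9 lower, with a median of 0.40. Those named are Npy1r, Ptger2 and Ptgir, all lower, at -3.37, -3.75 and -3.29. Ptger2 and Ptgir encode Gs-coupled prostaglandin receptors, and in adipocyte-like nuclei each was under 2 CPM in both libraries.

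Downstream of the receptors, each of the next 4 lists held genes that were higher and genes that were lower in adipocyte-like nuclei, beside 29.0% higher and 31.8% lower among all genes tested. In each of the 10 lists, the number of genes that passed differed by at most 2 between edgeR and DESeq2. Of 12 G protein alpha subunits, 2 were higher and 5 lower, with Gnai1, an inhibitory subunit, at 228 and 195 CPM (log2 fold change 1.78) and Gnai2, another, at 51.1 and 22.9 CPM (-1.82). Gnas, which encodes the stimulatory subunit itself, was at 201 and 202 CPM and did not pass. Of 13 cyclases, 2 were higher and 8 lower, and the soluble guanylyl cyclase genes Gucy1a1, Gucy1a2 and Gucy1b1 had log2 fold changes between -3.81 and -4.26. Of 11 genes of protein kinases A and G, 2 were higher and 7 lower, with the regulatory subunit gene Prkar2b at 514 and 787 CPM (2.39) and Prkg1 lower (-4.28). Of 10 genes that break down cyclic AMP, 4 were higher and 4 lower, with Pde3b, through which insulin restrains lipolysis, at 1010 and 1573 CPM (2.54), and Pde3a (-3.69) and Pde8b (-2.72) lower.

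The remaining lists also stand beside 29.0% higher and 31.8% lower among all genes tested. Receptor desensitization had 4 genes higher and 5 lower of 12. Rgs7 was at 436 and 849 CPM (log2 fold change 2.68), and Rgs4 (-3.80) and Ramp2 (-2.37) were lower. Of 18 genes tested that make or remove the ligands, 7 were higher and 8 lower. The lower ones named were Entpd1, which degrades extracellular ATP on the way to adenosine (-4.09), the adenosine transporter gene Slc29a1 (-3.57) and the prostaglandin synthase gene Ptgs1 (-3.13). Of 11 thermogenic genes tested, 9 were higher, among them Ppargc1a (2.01), Kcnk3 (2.03) and Cox8b (2.47, SE 1.55). Cox8b was at 21.9 and 8.20 CPM against up to 22.1 CPM in endothelial-like nuclei. Of 7 white adipocyte genes 4 were higher and 3 lower, among them Lep (2.38) and Nnat (2.18) higher and Sorbs2 (-3.12) lower. Lep is also 1 of the 8 adipocyte markers by which the clusters were named, so its higher call is not separate from the naming. It was left out of the genes used for clustering.

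With Cidea, 2.05% of all genes passed, and 1173 of 14651 had an unadjusted p under 0.05. No lipolytic enzyme (0 of 8) and no gene of protein kinases A and G (0 of 11) passed in edgeR, with median log2 fold changes of -0.05 and -0.19 against -0.09 for all genes. Unadjusted, 0 of the enzymes and 4 of the kinase genes had a p under 0.05, and DESeq2 passed 0 of either list. Changes among the kinase genes are therefore not excluded. Of the other receptors, 2 of 21 passed. The alpha-adrenergic receptor gene Adra1a, which couples to a calcium-raising G protein, was at 217 against 73.5 CPM in replicate 1 and 427 against 110 CPM in replicate 2, a log2 fold change of 1.73 (SE 0.24). The growth hormone receptor gene Ghr was lower, at 6603 against 12879 CPM and 11689 against 19820 CPM, a log2 fold change of -0.93 (SE 0.23). With Adrb1 higher, and Adrb3 not passing, Adrb1 and Adra1a were the adrenergic receptors that passed as higher with Cidea, among those tested. Adrb1 passed in 9 of 12 alternatives, and Adra2a was below the filter.

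In the other signalling lists, every gene that passed with Cidea was higher, with the exception of Ddc among the makers and removers of ligands. Among all genes tested, 1.20% were higher and 0.853% lower. Among the G protein subunits, Gnao1 rose, from 11.2 to 66.8 CPM in replicate 1 and from 19.5 to 110 CPM in replicate 2 (log2 fold change 2.47, SE 0.29), 1 of 12. Of 13 cyclases, the adenylyl cyclase gene Adcy3 rose (1.37, SE 0.30). Receptor desensitization had 4 of 12 higher, among them the receptor kinase genes Grk3 (1.37) and Grk5 (0.98) and Rgs2 (1.41). Of 10 genes that break down cyclic AMP, 2 were higher, Pde3a (1.94) and Pde8a (0.87). Pde3a was at 9.06 against 4.48 CPM in replicate 1 and 27.8 against 6.00 CPM in replicate 2. These levels were all below the lowest of the other cell types, 34.1 CPM. Ddc, which makes dopamine, was lower, 1 of 18 (-2.52, SE 0.74, edgeR quasi-likelihood, Benjamini-Hochberg adjusted p = 0.039). It was at 1.13 and 0.708 CPM with Cidea against 5.09 and 4.41 CPM without. All of these were below the 8.64 to 22.1 CPM of the other cell types. At totals of 883208 and 4237758 UMIs with Cidea, its levels there come from very few UMIs. All 12 thermogenic genes passed in edgeR, led by Ucp1 (4.51), Esrrg (3.71) and Cox7a1 (2.64), with a median of 2.05, and Cidea nuclei were chosen for such a gene. Of 8 white adipocyte genes, 3 were lower, Nnat (-2.08), Agt (-1.40) and Egfr (-0.96). DESeq2 passed fewer genes in some of these lists, with 8 of the 12 thermogenic genes, 2 of the 12 desensitization genes, 1 of the 8 white adipocyte genes and 0 of the 18 makers and removers of ligands, where 3 had an unadjusted p under 0.05 in edgeR. It passed as many as edgeR among the other receptors, the G protein subunits, the cyclases and the genes that break down cyclic AMP.

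**Figure D5:**
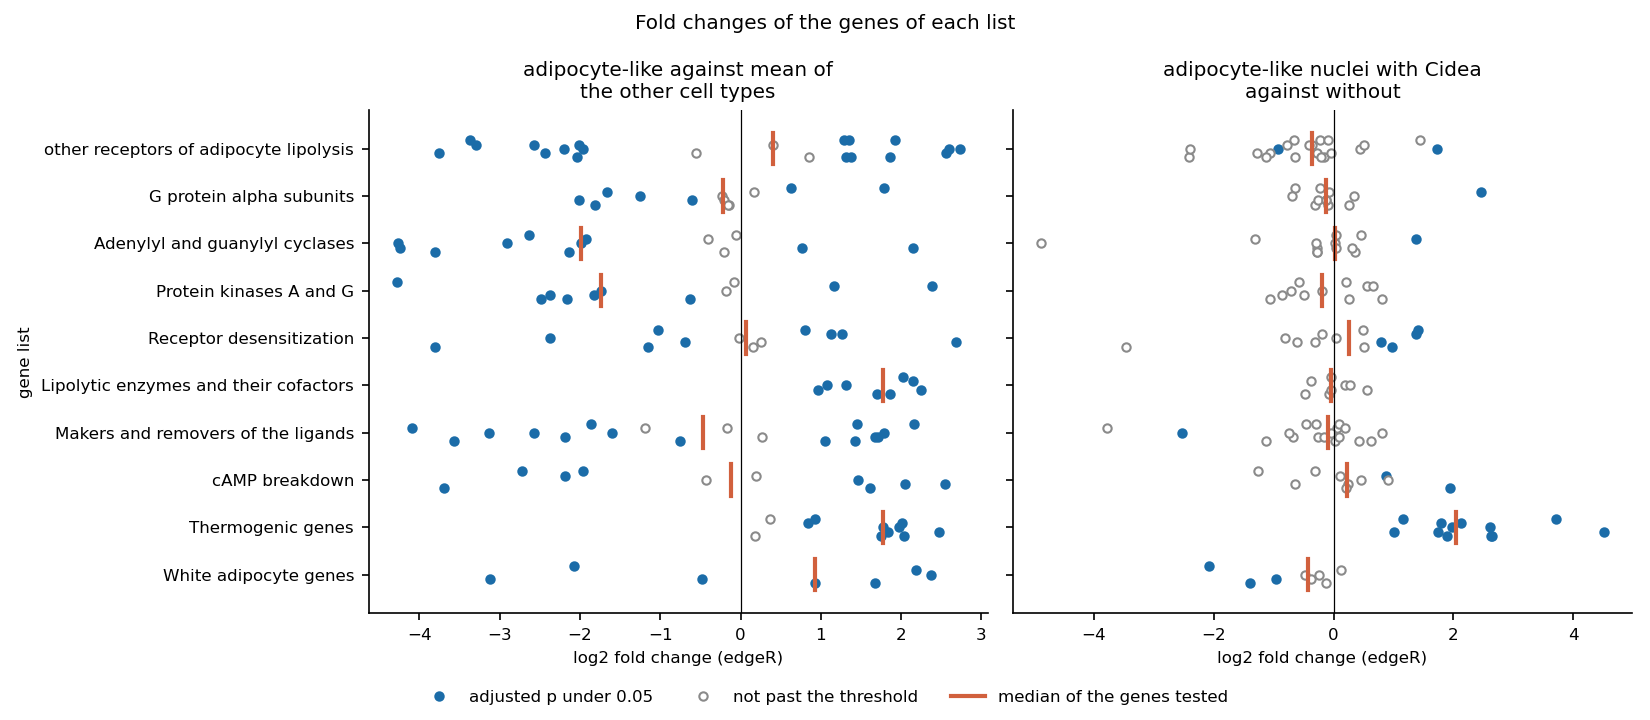
Log2 fold change of each tested gene of the 10 lists, for adipocyte-like nuclei against the other types and for nuclei with Cidea against those without. All 8 lipolytic enzymes lie above 0 in the cell type comparison and none passed with Cidea, where all 12 thermogenic genes were higher in edgeR.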

How the data were processed

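Single nuclei of young visceral fat were sequenced in 2 libraries. The deposited tables hold UMI counts for each gene and called barcode, made by the authors with CeleScope on the mouse GRCm39 genome, and no column was left unmapped (0). The members and lists were chosen with earlier results of these data known. Nuclei passed the limits given above, which left adipocyte totals of 5792189 and 28051327 UMIs. 1000 variable genes, 30 components and Harmony integration fed Leiden clustering (resolution 0.1, scanpy 1.11.5). A cluster was named when it met at least 3 markers and a share of 0.5 of a set, no other set came near that share and none of a list of predicted genes such as Gm11168 was among its 10 leading genes, a rule tried in 3 versions after the clusters were seen. Scrublet's own threshold marked 1 nucleus in each library (0.0353 and 0.00818%), so it did not work and none was removed.

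Counts were summed by type and library and fitted in R 4.3.3 with edgeR 4.0.16 (TMM, filterByExpr, estimateDisp, quasi-likelihood test, Benjamini-Hochberg), with the library as a block. The cell types come from the same mice. Over 15 pairs of types, the difference between libraries correlated at r = 0.149 to 0.425 across 14036 genes, which are not independent. The cell type fit was also run on simulated sums that had no library effect and few changed genes, unlike these data. That run therefore cannot vouch for the calls. The Cidea fit was not run on simulated sums. Genes named outside the 9 were at most 3 of each list, those past the test with the largest change; Gnas was added after its values were seen. Alternatives were DESeq2 1.42.0, no low-count filter, no block, only adipocyte groups, no integration, resolution 0.3 and a mitochondrial limit of 5%. Nuclei with the highest doublet scores were also removed, at an expected share of 6% (169 of 2833 and 668 of 12225 nuclei). Further alternatives were Cidea from at least 2 UMIs or from thinned nuclei, a depth window and each library left out. Counting unnamed nuclei as adipocytes was an alternative chosen after seeing the data. The genes most like Tshr are not reported here.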

Additional observations from a re-analysis of the deposited data

Results flagged for a closer look

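Receptor RNA was also found in barcodes that the comparisons did not use. In the unnamed cluster, the summed level of the 9 receptors was 2632 CPM in replicate 1 and 2695 CPM in replicate 2, below the adipocyte-like nuclei and above every named other type. In called barcodes that were not kept as nuclei it was 1654 CPM in replicate 1 and 944 CPM in replicate 2.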

How the results depend on the processing

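In the cell type comparison all 7 receptors tested kept their direction and passed under every alternative with a test. Genes that pass the filter through the type where they are high have to differ in each of these fits too, so this gives no support of its own. The number of genes passing moved by over 1.5 times only with the mitochondrial limit of 5% (5339, from 8539). That limit changed the groups too, with 915 and 6920 adipocyte-like nuclei in place of 1609 and 4201 and no smooth muscle-like group in the fit. Without integration the adipocyte-like nuclei were 1979 and 6945, near the 1979 and 6959 with unnamed nuclei counted as adipocytes, so these 2 alternatives make nearly the same change of groups. With Cidea, 3 receptors passed at first, 0 without the block, 5 with only the adipocyte groups in the fit and 1 with the mitochondrial limit of 5%. The genes passing with Cidea were 301 at first, 177 with DESeq2, 21 without the block, 1084 with only the adipocyte groups, 480 without integration, 168 with the mitochondrial limit of 5%, 617 with Cidea from at least 2 UMIs and 488 with unnamed nuclei counted as adipocytes, an alternative chosen after seeing the data. Ffar4 with Cidea changed sign without integration (0.0654, log2), with the mitochondrial limit of 5% (0.0828), with Cidea from thinned nuclei (0.0274) and with unnamed nuclei counted as adipocytes (0.0697), and ranged from -0.1768 to 0.0689 with each library left out. The value furthest from 0 was -0.8477, among adipocyte-like nuclei of 2000 to 6000 UMIs, where it did not pass. The cause was not tested. With a library left out the other values were CPM ratios with no test, so the counts have no value there.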
